A study of Mus musculus with 2 samples.

Results

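The early neuron genes described here are Tubb3, Neurod1, Nefl, Nefm and Isl1, compared between 2 cell pools that were sorted from mouse embryos of embryonic day 9.5. The members were chosen by position: every transcript of the authors' deposited table whose locus overlapped a window given for 1 of the 5 genes on the mm9 genome was taken. This gave 8 transcripts at 5 loci, of 55418 transcripts at 24214 loci in all. Embryos came from mTmG X Grhl3-cre matings on a C57BL/6 background, were between 21 and 25 somites old, and 25 of them were pooled. The mTmG reporter places a red fluorescent protein on the membrane of every cell, and Cre recombinase replaces it with a green one in Grhl3-expressing cells and their descendants. Per the labels, GFP-positive cells are the non-neural ectoderm, the surface sheet that flanks and then covers the closing neural tube. RFP-positive cells are what remained of the neural tube once that sheet was taken out. Both pools carried the reporter and the Grhl3-driven Cre, and each gave 1 library, so no value below has a replicate check and every p-value compares 2 libraries.

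The deposited table names its conditions q1 and q2, which match neither pool's labels. Differences are therefore given as q2 against q1, with no statement on which of the pools was higher. Abundances per condition were not used here for the same reason. The log2 fold change is read here as Cuffdiff defines it, q2 over q1, so that -1 stands for a 2-fold lower level in q2. This reading was not checked against abundances. The test statistic in the authors' deposited table runs the other way: it is positive for all 8 transcripts, and it has the sign opposite to the fold change in all 28140 tested transcripts with a finite value. Each "lower in q2" below therefore rests on the sign of the fold change column. The 5 gene names rest on position, since the table's gene column is empty, and 0 of its 55418 transcript IDs were found in the gene tables used here.

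Neurons arise in the neural tube when progenitors leave the cell cycle, move outwards and switch on genes for the neuronal cytoskeleton and for neuronal identity. Proneural factors of the basic helix-loop-helix family start this switch, and Neurod1 is one of those that act late in it. Tubb3 encodes the beta-tubulin found early in postmitotic neurons, Nefl and Nefm encode the light and medium subunits of the neurofilaments that fill axons, and Isl1 encodes a LIM homeodomain factor of motor and sensory neurons. At the stage sampled, the first of these neurons are being born while the neural tube closes.

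The 5 loci were checked against RefSeq genes of the later build GRCm38 by length, without moving coordinates between builds. Tubb3 lay on chromosome 8 from 125935463 to 125945910 of mm9, a length of 10448 bases against 10463 in RefSeq. Neurod1 lay on chromosome 2 from 79292797 to 79296793, or 3997 bases against 4000. Isl1 lay on chromosome 13 from 117088477 to 117099896, or 11420 bases against 11419. These 3 loci therefore had nearly the length of the genes they are named for.

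The neurofilament loci differed more in length. Nefl lay on chromosome 14 from 68701940 to 68705794, or 3855 bases against 5233 in RefSeq. Nefm lay beside it from 68737601 to 68749421, or 11821 bases against 5460, and this locus lists 2 transcripts. The starts of these loci were 35661 bases apart, close to the 35682 bases between the starts of the RefSeq genes. All 5 genes are protein-coding in RefSeq and on the chromosome named here.

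The RefSeq promoter table of GRCm38.p6 held a window of 250 bases before to 50 after the start for 3 of the 5 genes, Tubb3, Neurod1 and Isl1. They are shown for their sequence only. The E-box (CANNTG) is the element that Neurod1 and related factors bind. Capitals mark each CANNTG and each TATAA, the core of a TATA box, on either strand. The sequences run 5′ to 3′ on the strand of the gene.
Tubb3, chr8:123411303-123411602, plus strand: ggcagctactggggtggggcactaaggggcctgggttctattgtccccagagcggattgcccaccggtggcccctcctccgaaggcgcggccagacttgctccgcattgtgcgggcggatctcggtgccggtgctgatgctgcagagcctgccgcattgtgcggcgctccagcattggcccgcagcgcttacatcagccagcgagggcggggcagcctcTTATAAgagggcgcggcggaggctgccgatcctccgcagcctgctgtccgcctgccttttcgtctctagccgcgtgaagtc
Neurod1, chr2:79456587-79456886, minus strand: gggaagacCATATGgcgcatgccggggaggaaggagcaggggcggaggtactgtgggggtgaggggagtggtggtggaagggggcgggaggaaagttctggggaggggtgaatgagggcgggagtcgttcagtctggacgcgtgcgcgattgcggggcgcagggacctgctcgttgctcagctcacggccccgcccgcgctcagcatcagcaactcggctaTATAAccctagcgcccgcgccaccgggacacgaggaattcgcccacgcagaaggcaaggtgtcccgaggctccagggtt
Isl1, chr13:116309639-116309938, minus strand: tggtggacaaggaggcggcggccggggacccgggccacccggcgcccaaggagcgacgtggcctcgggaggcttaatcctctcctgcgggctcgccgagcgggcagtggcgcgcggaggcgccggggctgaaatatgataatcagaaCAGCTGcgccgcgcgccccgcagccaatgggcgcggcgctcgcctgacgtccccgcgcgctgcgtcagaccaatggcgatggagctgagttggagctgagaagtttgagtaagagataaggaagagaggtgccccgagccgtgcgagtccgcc

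The Neurod1 window held 1 E-box, CATATG, starting 242 bases before the start site, and the Isl1 window held 1, CAGCTG, starting 103 bases before it. In the Tubb3 window no CANNTG was found. Of all 32851 promoter windows of this length, 72.3% held an E-box, so its presence in 2 windows is common. A TATAA starting 29 bases before the start site was found in the Neurod1 window. In the Tubb3 window, overlapping matches on the 2 strands started 31 and 30 bases before the start site. TATAA was present in 24.9% of all windows. These matches describe the letters only. Neither binding nor promoter activity was measured.

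All 8 transcripts were tested by the authors, who tested 53.1% of the table, and all 8 had a finite fold change, so each was listed above 0 in both conditions. All 8 fold changes were negative, with a median of -0.85 on the log2 scale, against a median of 0.0046 over 28140 tested transcripts with a finite value, of which 49.5% were negative. Neurod1 was the 1 member of the 8 called different in the authors' deposited table, and the share called over all tested transcripts was 0.803%, or 0.112% for negative calls. Neurod1 is the 1 transcript listed at its locus, and of 4207 tested transcripts alone at their locus 2.54% were called, or 0.499% as negative calls. At each locus the transcript with the smallest error is called leading here, and the error is the size of the log2 fold change divided by that of its test statistic. The 5 leading transcripts lay between -1.96 and -0.74 with a median of -1.11, against -0.02 for the leading transcripts of 13344 loci, of which 52.5% were negative. In bulk RNA, fewer expressing cells and less RNA per cell cannot be told apart. Which cells the RNA came from was not measured.

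**Figure D1:**
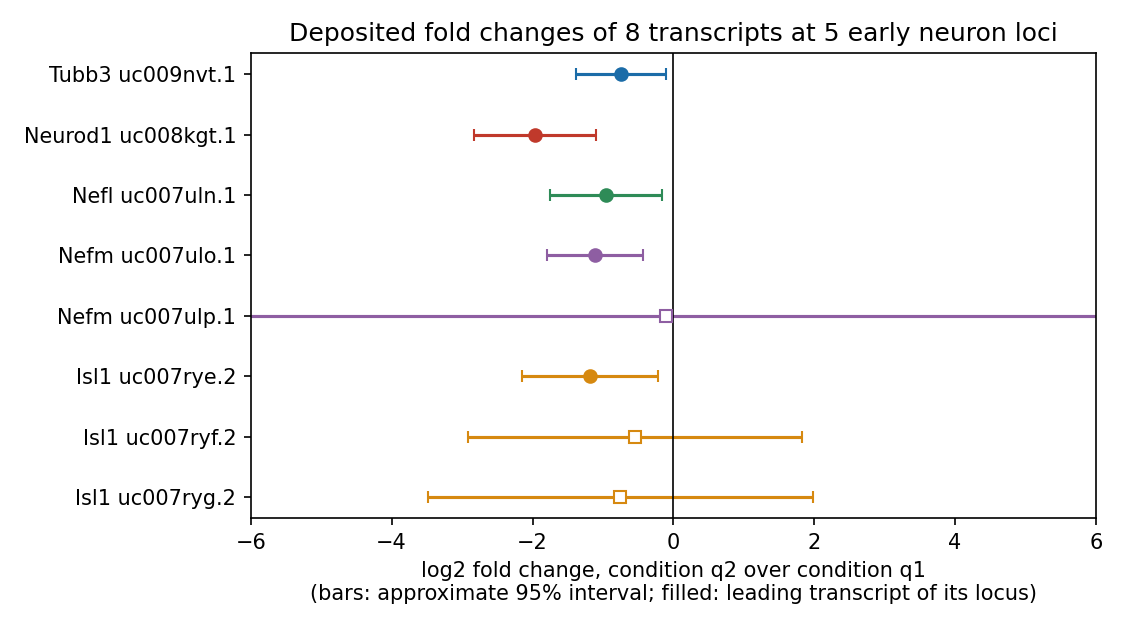
Log2 fold change of q2 over q1 (horizontal axis) for each of the 8 transcripts (vertical axis), with bars for the approximate 95% interval, 1.96 errors each way. All 8 points lie below 0, the bars of the 5 leading transcripts (filled) stay below 0, and those of the other 3 (open) cross it, the bar of Nefm uc007ulp.1 running past both ends of the axis.

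Neurod1, the transcription factor, had the largest difference of the 5 genes. In the authors' deposited table its transcript uc008kgt.1 had a log2 fold change of -1.96, which is 3.90-fold lower in q2. With an error of 0.44, the approximate 95% interval ran from 2.14-fold to 7.12-fold. Like all intervals here, it restates the deposited test on 2 libraries and holds no spread between replicates. The p-value in the authors' deposited table was 9.20e-06 and the q-value 0.00195. By p-value it ranked 7 among the 33 negative calls, but by size only 25 among the 29 negative calls with a finite value, whose median was -2.38. The Neurod1 difference was thus smaller than most of these negative calls. Its error was close to the median of 0.49 for the leading transcripts of all loci. Only 1.77% of the finite tested transcripts had a lower fold change.

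Isl1, the other transcription factor, lists 3 transcripts at its locus. Its leading transcript uc007rye.2 stood at -1.18 on the log2 scale (error 0.49) in the authors' deposited table, or 2.27-fold lower in q2, with an interval from 1.16-fold to 4.43-fold. The authors' deposited table gave it a p-value of 0.0166 and a q-value of 0.832, so it did not pass. The other Isl1 transcripts, uc007ryf.2 and uc007ryg.2, stood at -0.54 and -0.75 with errors of 1.21 and 1.39. All 3 values were negative, and the errors of uc007ryf.2 and uc007ryg.2 were wider than their differences.

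Nefm, the medium neurofilament subunit, came closest to a call among the genes that missed it. In the authors' deposited table its leading transcript uc007ulo.1 stood at -1.11 on the log2 scale (error 0.35), which is 2.16-fold lower in q2 with an interval from 1.34-fold to 3.46-fold. The p-value in the authors' deposited table was 0.00147 and the q-value 0.139, where the calls reached a q-value of 0.0489. The other transcript at this locus, uc007ulp.1, was at -0.10 with an error of 7.40 and carries almost no information. Both transcripts are named by locus alone, and which of them matches the RefSeq gene was not established.

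Nefl, the light subunit, stood close to Nefm. In the authors' deposited table uc007uln.1, the 1 transcript at the Nefl locus, stood at -0.95 on the log2 scale (error 0.41), or 1.94-fold lower in q2, with an interval from 1.12-fold to 3.36-fold. The p-value there was 0.0186 and the q-value 0.897. The 2 subunits assemble into the same filament, and their fold changes differed by 0.15 log2 units with a combined error of 0.53, less than the error of either.

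Tubb3 had the smallest difference and the smallest error of the 5 leading transcripts. In the authors' deposited table uc009nvt.1 stood at -0.74 on the log2 scale (error 0.33), or 1.67-fold lower in q2, with an interval from 1.07-fold to 2.61-fold. The p-value there was 0.0226 and the q-value 1.00. Of the finite tested transcripts, 8.38% had a lower fold change.

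All 5 leading transcripts were negative and had an unadjusted p-value there (the authors' deposited table) under 0.05, against 1.59% of the leading transcripts of all loci. At least 2-fold lower were 3 of the 5, Neurod1, Isl1 and Nefm, against 3.54% of the leading transcripts of all loci. These genes were proposed with results of these data in view, so the counts describe them and are not a test of the list.

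**Figure D2:**
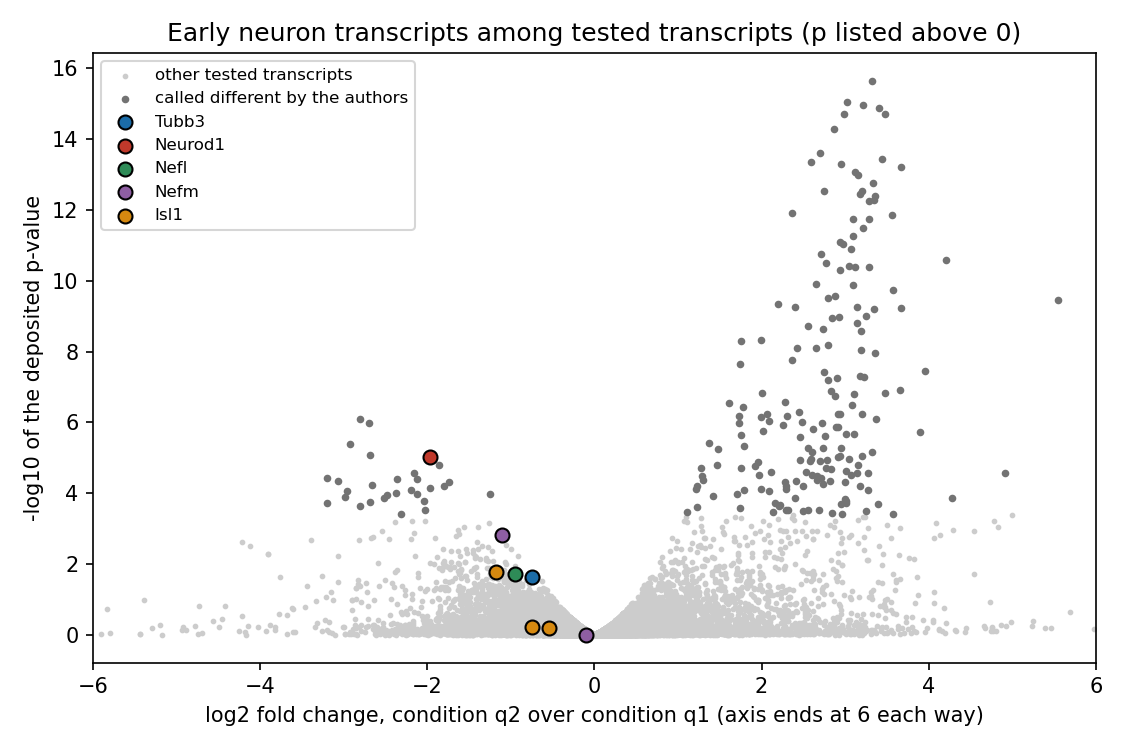
Log2 fold change of q2 over q1 (horizontal axis) against -log10 of the deposited p-value (vertical axis) for tested transcripts, with called ones in dark grey and the 8 early neuron transcripts in colour. Neurod1 lies among the negative calls and the other 7 lie below the calls. The 18 finite transcripts with a p-value listed at 0 and the 399 with a fold change beyond 6 are not drawn.

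The order of the leading fold changes, from the lowest, was Neurod1, Isl1, Nefm, Nefl and Tubb3. Among the 10 pairs of genes, the approximate 95% interval of the difference left out 0 in 1 pair, with no adjustment over the pairs. That pair was Tubb3 and Neurod1, the ends of this order. The fold change of Tubb3 was less negative by 1.22 log2 units, with a combined error of 0.55 and an interval from 0.14 to 2.30. Neurod1 and Isl1, neighbours in the order, differed by -0.78 with an interval from -2.08 to 0.52. For Isl1, Nefm, Nefl and Tubb3 no difference between neighbours exceeded its error. The combined errors take the 2 genes of a pair as independent, which 2 shared libraries do not ensure.

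Next, the loci around each member were compared with it. Neurod1 had 2 neighbouring loci with a tested finite transcript within 500000 bases, and their leading transcripts stood at -0.21 and -0.48. The Neurod1 value lay well below both. Around Tubb3 there were 22 such loci, 12 negative and 10 positive, with a median of -0.04. One of them, uc009nwr.1, had a lower fold change than Tubb3, at -1.64 (error 0.57). Another, uc009nuf.1, was a positive call in the authors' deposited table, at 2.75.

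Nefl and Nefm were each other's nearest locus, 31806 bases apart with 0 transcripts listed between them. The other 4 neighbouring loci within 500000 bases of either lay between -0.23 and 0.20. Both neurofilament genes had lower fold changes than all 4. The errors of these 4 ran from 0.38 to 0.77, against 0.41 for Nefl and 0.35 for Nefm. No interval was computed for these differences. Isl1 had 0 neighbouring loci with a tested finite transcript in this range.

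**Figure D3:**
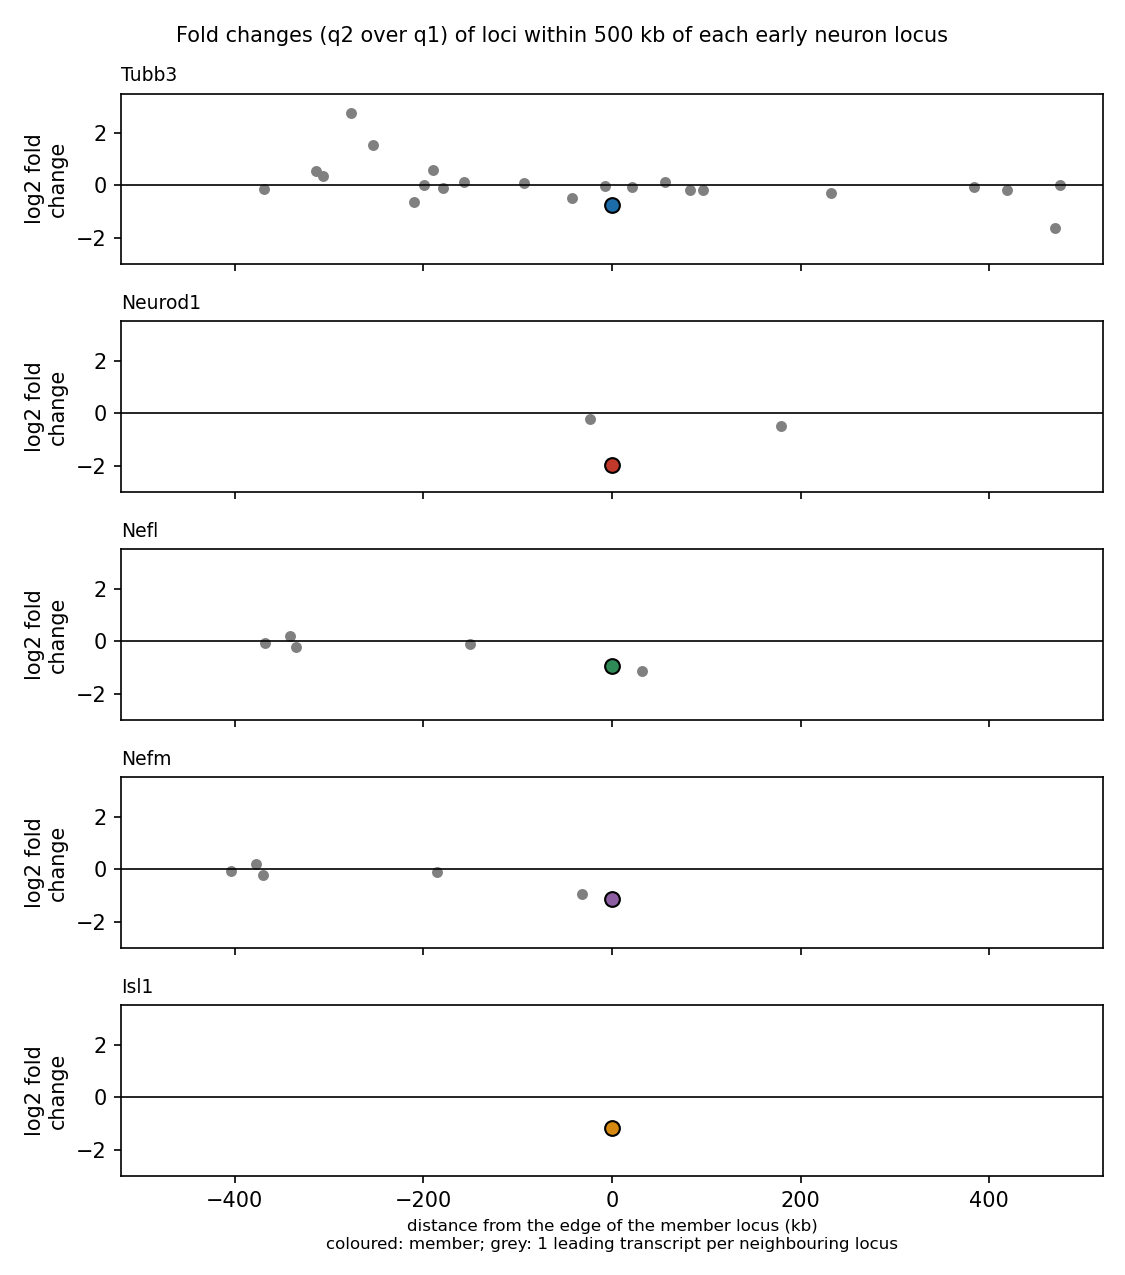
Log2 fold change of q2 over q1 (vertical axis) of the leading transcript of each locus within 500 kb of a member, by distance in kb (horizontal axis), with 1 panel per gene. Nefl and Nefm appear as neighbours in each other's panels and lie below the other 4 loci there, and the Isl1 panel holds Isl1 alone.

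GENCODE M21, on GRCm38, lists other genes that overlap 4 of the 5. Neurod1 is overlapped by Cerkl on its own strand and by Gm26755 on the opposite one, Tubb3 by Gm20388 on its own strand, Nefm by Gm19216 and Nefl on the opposite strand, and Nefl by Nefm. The mm9 loci of Nefl and Nefm used here did not overlap and lay 31806 bases apart. No overlapping gene is listed for Isl1. Whether reads were counted by strand is not given in the sources used here, and the part of such overlaps in these values was not tested. Another 24 neuron genes, among them Neurog2, Elavl3, Dcx and Stmn2, had been listed for comparison, together with markers of ectoderm, neural progenitors, neural crest, blood, endothelium and mesenchyme. None was located, because the transcript IDs carry no names, so the labels of the pools were not checked against markers.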

How the data were processed

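RNA from 2 sorted pools was made into libraries from 1 µg of total RNA each (Illumina TruSeq), per the labels' protocols. Reads were processed on mm9 with TopHat (1.3.2), Cufflinks (2.0.2) and Cuffdiff, per the submitters' processing notes. For Cuffdiff, neither version, settings nor annotation is given in the sources used here. The authors deposited 1 table with a log2 fold change, a test statistic (a score), a p-value and a q-value for each transcript, per the file headers. A call is the authors' own mark of significance. The 2 columns of values per condition matched neither sample and were not used. Depth is therefore unknown, and no counting intervals are given.

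Rows overlapping the window of each gene were taken, and every row found is named. Errors are the size of the log2 fold change divided by that of the test statistic, and approximate 95% intervals span 1.96 errors each way. Choosing a leading transcript per locus, the pairs and the neighbours within 500000 bases were decided after the data were examined. The members and lists were chosen with earlier results of these data known. The p-value adjustment was tested on simulated data. Promoter sequences are from RefSeq (GRCm38.p6). Software was matplotlib 3.10.9, scipy 1.17.1, pandas 2.3.3 and numpy 2.4.6 under Python 3.11.15.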

Additional observations from a re-analysis of the deposited data

How the results depend on the processing

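Neurod1 was the 1 member called at a q-value of at most 0.1, at a q-value of at most 0.01 and after adjusting the deposited p-values over every row, where its adjusted value was 0.00367. Counting only loci wholly inside their windows left the 3 Isl1 transcripts, 3 negative and 0 called, because the other 4 loci reach past the window edges. Centring on the median shifted values by 0.0046 log2 units and left 8 of 8 negative. This shift could not change a sign, since the smallest member value in size was -0.10. The leading transcripts, a choice made after seeing the data, gave 5 of 5, which follows because they are among the same 8. The share called rose from 0.803% of all tested transcripts to 1.66% of leading transcripts and to 2.54% at loci that list a single transcript, as Neurod1, Nefl and Tubb3 do. Settings for abundances (pseudocounts and a filter on low values) were not run, since those columns were not used. No paired analysis was possible because each pool gave 1 library, and for the same reason no replicate could be left out.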
